A study of Homo sapiens with 12 samples.

Results

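S100A8, S100A9, S100A12 and HP are 4 genes of the 58735 rows in the count table, followed here in THP1 monocytes that were kept alone or beside endothelial cells and then stimulated with lipopolysaccharide (LPS). They were chosen by their own counts, because their levels were raised with senescent endothelial cells over control endothelial cells in a fit that blocks on the replicate number, so that comparison is described for them without a test. THP1 is an established human leukaemia line with monocyte features, of wild-type genotype in all 4 groups of 3 libraries. The first group was THP1 mono-culture. The other groups were co-cultured for 24 h with human umbilical vein endothelial cells (ECs) across a membrane with 1 µm pores: with control ECs that had received the solvent DMSO, with ECs made senescent by 10 µM etoposide (senECs), or with senECs that had also received 100 µM EGCG, a catechin of green tea. The ECs were treated before the co-culture, and 400000 THP1 cells faced 500000 ECs in a well. The THP1 cells of all groups, mono-culture included, were kept in endothelial medium and then given LPS (100 ng/ml, 2 h), and RNA was taken from the THP1 cells after that step, so that no group shows unstimulated cells. The libraries are numbered 1, 2 and 3 in mono-culture and with control ECs. In the senEC and EGCG-treated senEC groups the numbers are 1, 2 and 5.

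S100A8 and S100A9 are small calcium-binding proteins that pair into calprotectin, an abundant cytosolic protein of neutrophils and monocytes that also binds zinc and manganese. Once released, calprotectin acts as an alarmin through TLR4 and the receptor RAGE, and S100A12, a close relative, is likewise released by myeloid cells and binds RAGE. Haptoglobin, the product of HP, binds free haemoglobin so that the complex can be taken up through CD163. It is an acute-phase protein made mainly by the liver and is also stored by myeloid cells.

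The 3 S100 genes lie together on chromosome 1 and HP lies apart from them on chromosome 16. In GENCODE release 29 on GRCh38, S100A9 is at chr1:153357854-153361027 on the plus strand, S100A12 at chr1:153373706-153375649 on the minus strand and S100A8 at chr1:153390032-153391188 on the minus strand, within a span of 33335 bases. HP is at chr16:72054592-72061055 on the plus strand, inside TXNL4B on the other strand (chr16:72044289-72094431), and because the strand setting of the counting is not stated, reads of the 2 genes cannot be told apart with certainty. The haptoglobin-related gene HPR begins 2092 bases after HP ends, and the coding sequences are identical at 995 of 1041 aligned bases (95.6%), so that HP reads could have been shared with HPR. HPR itself was counted at 0 to 12 reads per library, against 437 to 1863 for HP. The coding sequences of the S100 genes are less alike, at 63.2% for S100A8 and S100A9, 63.3% for S100A8 and S100A12 and 66.8% for S100A9 and S100A12.

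The 3 S100 genes varied together between libraries, and HP varied with them. For the S100 genes the 250 bases before the start sites are shown, from RefSeq on GRCh38.p14 and written 5′ to 3′ on the strand of the gene. S100A9 is read from chr1:153357604-153357853 on the plus strand, S100A12 from chr1:153375622-153375871 on the minus strand and S100A8 from chr1:153391074-153391323 on the minus strand. S100A8 has 3 RefSeq start sites with overlapping windows, of which the middle one is shown, a choice made after the matches were seen. Capitals mark the letters of motifs found by a search of both strands: TTNNGNAA for C/EBP factors, GAGGAA for PU.1 (seen here as its reverse complement), TGANTCA for AP-1 and TATAAA for a TATA box.
S100A8: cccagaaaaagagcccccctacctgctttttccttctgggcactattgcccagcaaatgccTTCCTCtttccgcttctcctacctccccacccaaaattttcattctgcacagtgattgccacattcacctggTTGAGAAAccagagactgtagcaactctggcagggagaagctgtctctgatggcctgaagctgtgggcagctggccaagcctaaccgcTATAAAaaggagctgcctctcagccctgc
S100A9: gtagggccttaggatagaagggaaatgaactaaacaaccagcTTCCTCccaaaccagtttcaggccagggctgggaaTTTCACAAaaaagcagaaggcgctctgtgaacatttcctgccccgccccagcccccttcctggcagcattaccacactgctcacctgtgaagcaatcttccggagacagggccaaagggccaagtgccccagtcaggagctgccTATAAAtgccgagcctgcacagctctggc
S100A12: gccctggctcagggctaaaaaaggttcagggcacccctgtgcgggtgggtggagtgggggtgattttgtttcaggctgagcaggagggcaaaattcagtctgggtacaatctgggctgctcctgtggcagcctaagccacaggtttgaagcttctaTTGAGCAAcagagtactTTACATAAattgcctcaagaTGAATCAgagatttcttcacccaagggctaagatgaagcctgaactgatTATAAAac

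All 3 S100 genes hold the C/EBP letters, which 33.2% of all 35116 RefSeq windows of this length also hold, and the TATA letters, which 10.7% hold. The TATA letters run from -29 to -24 before the start in S100A9 and in the S100A8 window shown, and from -8 to -3 in S100A12. The PU.1 letters are in S100A8 and S100A9 and in 23.6% of all windows, and the AP-1 letters are in S100A12 and in 6.57%. No window of the 3 genes holds TTCNNNGAA for STAT factors (6.57% of all windows), GGANTTTCC or GGGNTTTCC for NF-κB (3.08%), TGTTCT for the glucocorticoid receptor (12.4%) or ACGTG or GCGTG for hypoxia-inducible factors (43.2%). A match describes letters only, and a missing match says nothing on a factor. HP has no entry in the promoter table.

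Total counts ranged from 15439836 to 22092600 per library (median 18153783), and replicate libraries were distinct beyond sampling noise (chi-square over its degrees of freedom at least 10.3 for each pair). Levels are given in CPM, counts scaled to a common library size by the TMM method. The monocyte label was checked on 11 markers: SPI1, VCAN, TYROBP, FCER1G, LYZ, CD33 and ITGAM had at least 59.0 CPM in every library. CSF1R ranged from 48.5 to 94.9 CPM and CD14 from 5.91 to 65.7 CPM, whereas FCN1 stood at 0 to 2 counts and CD68 at 2 to 16 counts. The endothelial list summed to 161 to 186 CPM in mono-culture, 157 to 180 with control ECs, 199.956 to 239 beside senECs and 192 to 246 in the EGCG-treated senEC group. Of its 14 genes, PECAM1 (129 to 217 CPM over all libraries), which monocytes also express, and EGFL7 (17.8 to 30.4 CPM) gave most of the sum, also in mono-culture where no EC was present. CDH5 and EMCN had at most 1 and 3 counts, MMRN1 had 0 in all libraries, and KDR, TEK, TIE1, CLDN5 and ROBO4 had at most 10. NOS3 (47 to 91 counts), ESAM (18 to 78), VWF (7 to 40) and ERG (3 to 37) were counted in every library, mono-culture included. In the edgeR fit that blocks on the replicate number, PECAM1 was called higher with senECs than in mono-culture, where 2.74% of all genes were called. Mitochondrial genes took 3.10% to 4.80% of the counts.

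S100A9 was, per transcript length, the most abundant of the 4 genes in every library and its CPM differed 19.8-fold between the lowest and the highest library. In mono-culture it stood at 71.7, 99.1 and 206 CPM in libraries 1, 2 and 3. With control ECs it stood at 156, 231 and 672 CPM in the same order. With senECs it stood at 212, 434 and 1423 CPM in libraries 1, 2 and 5. With EGCG-treated senECs it stood at 143, 406 and 726 CPM. Each co-culture library was thus above the mono-culture library of the same place in the order, and the senEC libraries were the only ones that did not overlap with mono-culture, by 212 against 206 CPM at the nearest. In the highest library S100A9 ranked 61st by CPM of the 25873 genes tested, and in the lowest it ranked 3332nd.

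S100A8 showed the widest range, 58.7-fold from 8.89 to 521 CPM. The mono-culture libraries 1, 2 and 3 held 8.89, 16.3 and 53.7 CPM. The control EC libraries held 27.5, 41.2 and 189.6 CPM. The senEC libraries 1, 2 and 5 held 33.7, 77.9 and 521 CPM, and the EGCG-treated senEC libraries held 24.8, 67.2 and 200.2 CPM. The third library of each group was by far its highest, and the ranges of all 4 groups overlapped. In the group means ± SD (n = 3) S100A8 was at 26.3 ± 24.0 CPM in mono-culture, 86.1 ± 89.9 with control ECs, 211 ± 269.8 beside senECs and 97.4 ± 91.5 in the EGCG-treated senEC group, so that the SD exceeded the mean in 2 of the 4 groups.

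S100A12 was the least abundant per transcript length, with 11 to 523 counts per library, and its low counts make the values of library 1 imprecise. It stood at 0.684, 1.72 and 4.57 CPM in mono-culture and at 1.82, 2.90 and 10.3 CPM with control ECs. With senECs it stood at 1.34, 4.97 and 31.6 CPM, and with EGCG-treated senECs at 0.853, 4.26 and 14.1 CPM. Unlike S100A8 and S100A9, S100A12 was lower with senECs than with control ECs in the libraries numbered 1, at 26 and 38 counts.

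HP varied least, 4.14-fold from 27.2 to 112.6 CPM. It stood at 27.2, 37.8 and 58.1 CPM in mono-culture and at 32.1, 44.4 and 72.4 CPM with control ECs. With senECs it stood at 47.7, 68.5 and 112.6 CPM, and with EGCG-treated senECs at 41.2, 72.6 and 76.5 CPM. The group means ± SD (n = 3) were 41.0 ± 15.7, 49.6 ± 20.6, 76.3 ± 33.1 and 63.5 ± 19.4 CPM, and no pair of groups was separate.

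**Figure D1:**
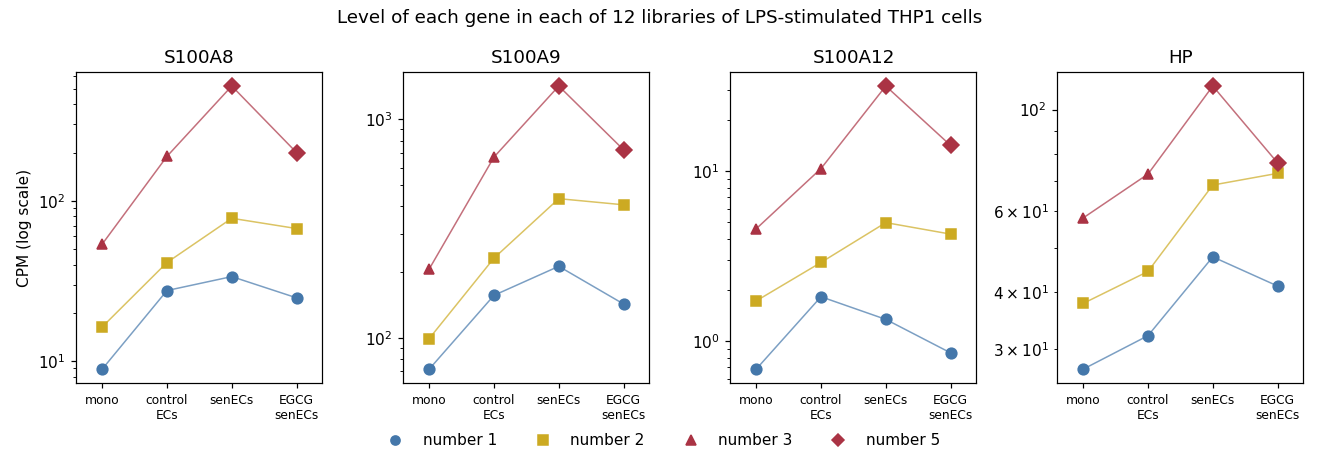
Level of S100A8, S100A9, S100A12 and HP in each of the 12 libraries (y axis, CPM on a log scale, a separate scale for each gene) against the 4 groups (x axis), with 1 point per library and colours and shapes for the replicate number. Lines join libraries 1, libraries 2 and libraries 3 with 5. The red points are the highest of every group for every gene, and S100A8 reaches from 8.89 to 521 CPM.

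Compared per length of the principal transcript, in FPKM (CPM per kilobase), the order of the mean levels was S100A9, S100A8, HP and S100A12 in every group. In mono-culture the means ± SD (n = 3) were 218 ± 123 FPKM for S100A9, 50.3 ± 45.9 for S100A8, 28.4 ± 10.9 for HP and 4.49 ± 3.89 for S100A12. With senECs they were 1195 ± 1117 FPKM for S100A9, 403 ± 516 for S100A8, 52.9 ± 23.0 for HP and 24.4 ± 31.9 for S100A12. S100A8 and HP changed places by library: in mono-culture library 1 S100A8 was at 17.0 and HP at 18.8 FPKM, whereas in senEC library 5 they were at 997 and 78.0 FPKM. Over the libraries of a group, S100A9 and S100A8 overlapped in the 3 co-cultures and not in mono-culture. S100A8 and HP overlapped in every group but that with control ECs, and HP and S100A12 overlapped with senECs only.

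The replicate number went with the level of all 4 genes more than the group did. The library numbered 3 or 5 was the highest of its group for each gene and the library numbered 1 the lowest, in all 4 groups. For S100A8 the third library was 6.04 times library 1 in mono-culture, 6.89 times with control ECs, 15.5 times with senECs and 8.08 times with EGCG-treated senECs. For HP these ratios were 2.14, 2.25, 2.36 and 1.86. When 3 and 5 are treated as 1 number, the number took 64.8% of the variance of log2 CPM of S100A8 over the 12 libraries and the group 32.6%. The shares were 53.8% and 42.5% for S100A9, 78.3% and 15.6% for S100A12, and 61.5% and 34.9% for HP, each as a description of these libraries. The labels do not say what a number stands for, nor that 3 and 5 belong together. Genes that LPS induces early moved along with the number: the mean log2 CPM of 14 such genes was 5.59, 6.33 and 7.00 in mono-culture libraries 1, 2 and 3 and 5.92, 6.18 and 7.44 in senEC libraries 1, 2 and 5. Their part in the levels of the 4 genes was not tested. In bulk RNA a change in the number of cells that express a gene and a change in the RNA per cell cannot be told apart.

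The ratio between the calprotectin transcripts also changed with the number. Per transcript length, S100A9 exceeded S100A8 7.31, 5.50 and 3.49 times in mono-culture, 5.15, 5.09 and 3.21 times with control ECs, 5.72, 5.05 and 2.47 times with senECs and 5.22, 5.48 and 3.29 times with EGCG-treated senECs. The libraries with the most calprotectin mRNA thus held the most S100A8 relative to S100A9, in all 4 groups, while the ranges of the groups overlapped. The ratio of S100A8 to S100A12 showed no such order: it ran from 9.38 to 12.9 in mono-culture and from 14.02 to 28.8 with EGCG-treated senECs, where the highest value rests on 14 counts of S100A12.

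**Figure D2:**
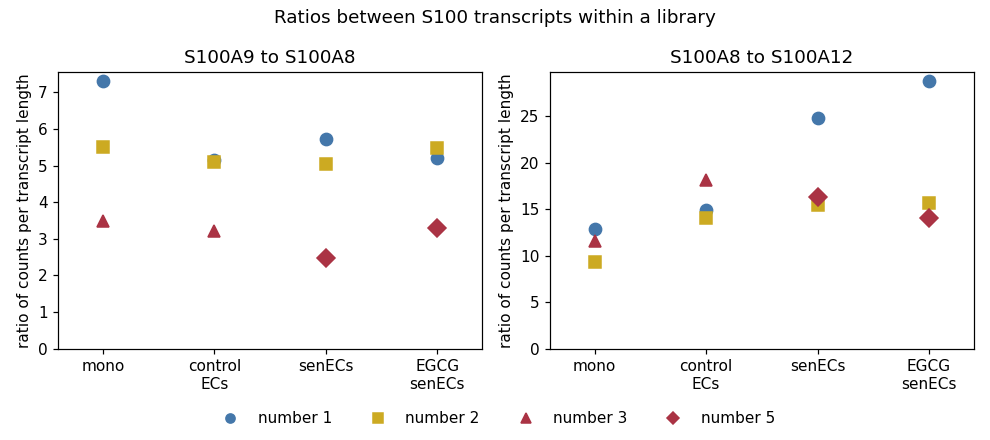
Ratio of counts per principal transcript length within each library (y axis) for S100A9 to S100A8 (left) and S100A8 to S100A12 (right) in the 4 groups (x axis), with 1 point per library and colours and shapes for the replicate number. On the left the libraries numbered 3 or 5 lie between 2.47 and 3.49 and all others between 5.05 and 7.31.

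The question behind the comparison of senECs with control ECs was whether senescence of the ECs alters the monocytes beside them. This comparison chose the 4 genes, and its values are given as a description. Within numbers, senECs over control ECs gave log2 differences of 0.29, 0.92 and 1.46 for S100A8 and 0.44, 0.91 and 1.08 for S100A9, where the last of each 3 sets library 5 against library 3. S100A12 gave -0.41, 0.76 and 1.60, and HP gave 0.57, 0.62 and 0.64. The difference was thus nearly the same in the 3 numbers for HP, which was 1.49, 1.54 and 1.56 times as high, and spread widely for the S100 genes. Without regard to the numbers, the log2 fold changes ± SE were 1.30 ± 0.84 for S100A8, 0.96 ± 0.60 for S100A9, 1.34 ± 0.87 for S100A12 and 0.62 ± 0.31 for HP.

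In that group-only fit edgeR called 0% of the 25873 genes in senECs against control ECs (1709 had an unadjusted p under 0.05), and DESeq2 also called 0, none of the 4 genes among them. With the number as a block, 3 of the 4 genes (S100A8, S100A9 and HP) were among the 0.591% of genes called by edgeR, and this count restates how they were chosen. The same block called HP alone of the 4 with DESeq2, which called 0.286% of genes, and none of the 4 with limma voom, which called 0.00387%. With senEC library 5 left out of the group-only fit the S100 differences changed sign, to -0.62 for S100A8, -0.13 for S100A9 and -0.66 for S100A12, and HP went from 0.62 to 0.23.

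The comparison of EGCG-treated senECs with mono-culture is the only one that shares no library with the one above. It is therefore the one in which the 4 genes were tested. The fit that chose the genes blocked on the number, so these libraries may have entered it through the numbers and the shared spread. The test may therefore not be fully independent of the choice. Each of the 4 genes was higher with EGCG-treated senECs in all 3 pairs of libraries in the same place of the order, and the groups overlapped for each gene. The log2 fold changes ± SE of the group-only edgeR fit were 1.76 ± 0.62 for S100A9, 1.89 ± 0.88 for S100A8, 1.46 ± 0.94 for S100A12 and 0.63 ± 0.31 for HP. None passed the test, with Benjamini-Hochberg adjusted p by edgeR of 0.398 for S100A9, 0.579 for S100A8, 0.698 for S100A12 and 0.598 for HP, when 0.213% of all genes were called. Leaving out 1 library at a time gave 0.80 to 2.94 for S100A8, 1.13 to 2.31 for S100A9, 0.11 to 2.39 for S100A12 and 0.41 to 0.96 for HP, with the lowest S100 values without EGCG-treated senEC library 5 and the highest values of all 4 without mono-culture library 3, and none passed. The unadjusted edgeR p were 0.0100 for S100A9, 0.0443 for S100A8, 0.136 for S100A12 and 0.0576 for HP, and DESeq2 called none of the 4 either. An exact two-sided permutation test of log2 CPM gave p = 0.2 for S100A8, S100A9 and HP and p = 0.5 for S100A12, where 0.1 is the smallest value that 3 against 3 libraries allow.

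Within numbers, the log2 differences of EGCG-treated senECs over mono-culture were 0.99, 2.04 and 1.81 for S100A9, 1.47, 2.03 and 1.90 for S100A8, 0.60, 0.94 and 0.40 for HP, and 0.28, 1.25 and 1.61 for S100A12, where the last of each sets library 5 against library 3. When the number was taken as a block in these 6 libraries alone, with 3 and 5 joined, all 4 genes passed the test by edgeR, DESeq2 and limma voom, which called 5.36%, 2.58% and 5.19% of the 22693 genes tested. The adjusted p by DESeq2 were 3.17e-05 for S100A9, 1.96e-42 for S100A8, 5.25e-05 for HP and 0.0327 for S100A12, and that of S100A12 was 0.0425 by limma voom and 2.11e-05 by edgeR. The log2 fold changes ± SE by DESeq2 were 1.62 ± 0.31 for S100A9, 1.84 ± 0.13 for S100A8, 0.65 ± 0.13 for HP and 1.23 ± 0.38 for S100A12. The prior degrees of freedom of the edgeR fit were infinite, so that it gave no weight to each gene's own spread. Its SE of 0.08 for S100A9 is small beside the SE of 0.31 by DESeq2. The SD between the 3 differences within numbers was 0.55 for S100A9, and an SE of their mean is smaller than that by the square root of 3. The DESeq2 p rest on a normal reference, which makes no allowance for having only 3 differences per gene. For S100A8 its SE was 0.13 and the SD between those differences was 0.30, which is a spread of single differences and not of their mean. The labels do not say that 3 and 5 belong together or that equal numbers mark paired libraries. These blocked values, computed after the data were seen, need both to be so. Even then the p of edgeR and DESeq2 can overstate what 3 pairs show.

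With all 12 libraries and 3 and 5 as separate numbers, S100A9, S100A8 and HP were called by all 3 tools and S100A12 by none. No number 3 stands in the EGCG-treated group and no number 5 in mono-culture, so these libraries were linked through those with control ECs and senECs, which chose the genes, and the calls are no independent test. DESeq2 called 1.23% of all genes in that fit, limma voom 0.788% and edgeR 1.64%.

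**Figure D3:**
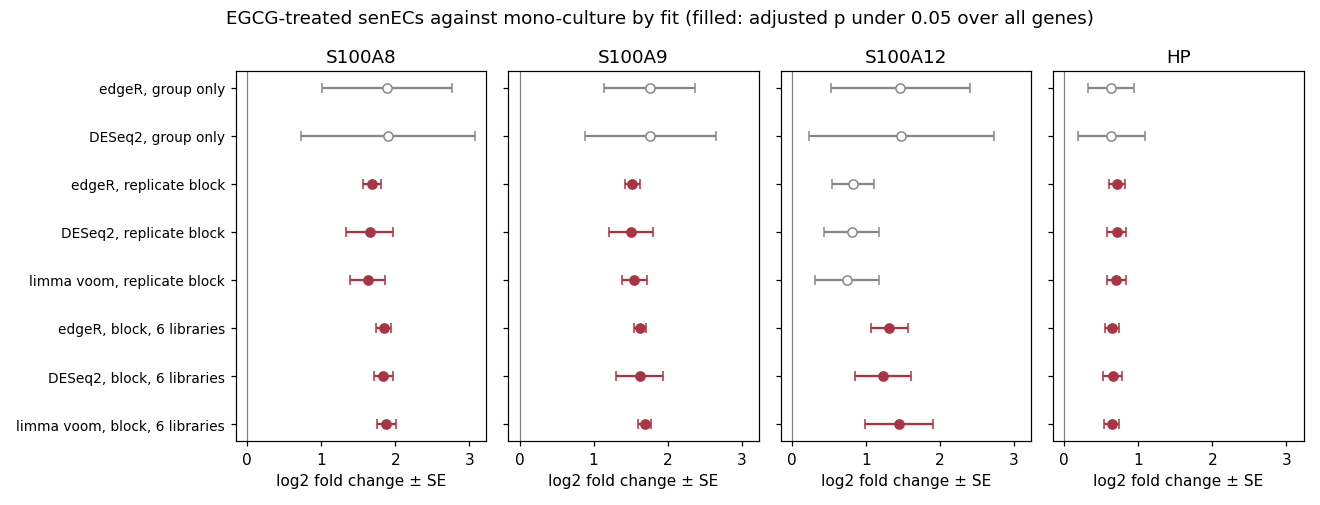
Log2 fold change of each gene with EGCG-treated senECs against mono-culture (x axis, points, with bars of ± 1 SE) by 8 fits (rows), filled red where the adjusted p over all genes tested was under 0.05. Estimates without a block lie between 0.63 and 1.90 and are open, and all those of the block in the 6 libraries of the comparison are filled.

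Control ECs against mono-culture asks what co-culture with non-senescent ECs does, and it shares the control EC libraries with the comparison that chose the genes, so no test is given for them. The differences within numbers were 1.62, 1.33 and 1.82 on the log2 scale for S100A8 and 1.12, 1.22 and 1.70 for S100A9. For S100A12 they were 1.28, 0.72 and 1.16, and for HP 0.24, 0.23 and 0.32. In this comparison the 3 S100 genes were higher by at least 1.68 times in every number and HP by at most 1.25 times. The group-only log2 fold changes ± SE were 1.70 ± 0.87 for S100A8, 1.49 ± 0.61 for S100A9, 1.07 ± 0.95 for S100A12 and 0.27 ± 0.31 for HP, and edgeR called 0.143% of all genes and none of these 4. Without control EC library 3 the differences were 0.38 for S100A8, 0.62 for S100A9, 0.01 for S100A12 and -0.10 for HP, and without mono-culture library 3 they were 2.76, 2.05, 2.01 and 0.61.

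SenECs against mono-culture gave the widest differences of the 6 comparisons, and since it holds the senEC libraries that chose the genes, they are a description. Within numbers, S100A8 was 3.79, 4.77 and 9.72 times as high and S100A9 2.96, 4.38 and 6.90 times as high. S100A12 was 1.96, 2.89 and 6.91 times as high and HP 1.76, 1.81 and 1.94 times as high. The group-only log2 fold changes ± SE were 3.00 ± 0.91 for S100A8, 2.45 ± 0.63 for S100A9, 2.41 ± 0.93 for S100A12 and 0.89 ± 0.31 for HP, with 0.309% of all genes called by edgeR and none of these 4 among them. Without senEC library 5 the differences were 1.08 for S100A8, 1.36 for S100A9, 0.41 for S100A12 and 0.50 for HP, and without mono-culture library 3 they were 4.05, 3.01, 3.35 and 1.22.

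EGCG-treated senECs against senECs asks whether EGCG given to the ECs changes what the monocytes express, and the senEC libraries are again shared with the choice. The levels were lower with EGCG-treated senECs in all 3 numbers for the S100 genes: by log2 differences of -0.44, -0.21 and -1.38 for S100A8, -0.57, -0.09 and -0.97 for S100A9 and -0.59, -0.22 and -1.15 for S100A12. HP gave -0.21, 0.08 and -0.56. The library numbered 5 gave the largest difference for each gene, and the group-only log2 fold changes ± SE were -1.11 ± 0.84 for S100A8, -0.70 ± 0.60 for S100A9, -0.95 ± 0.85 for S100A12 and -0.26 ± 0.31 for HP. EdgeR called 0% of all genes here (575 had an unadjusted p under 0.05), and DESeq2 called 0 too. With senEC library 5 left out, all 4 differences were above 0, at 0.81 for S100A8, 0.40 for S100A9, 1.05 for S100A12 and 0.13 for HP. Without EGCG-treated senEC library 5 they were -2.20, -1.33, -2.30 and -0.42 in the same order.

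EGCG-treated senECs against control ECs gave small differences of mixed direction. Within numbers they were -0.15, 0.70 and 0.08 for S100A8, -0.13, 0.81 and 0.11 for S100A9, -1.01, 0.54 and 0.45 for S100A12, and 0.36, 0.71 and 0.08 for HP on the log2 scale. HP alone was above 0 in all 3. The group-only log2 fold changes were 0.18 ± 0.83 for S100A8, 0.27 ± 0.60 for S100A9, 0.39 ± 0.88 for S100A12 and 0.36 ± 0.31 for HP (± SE), and 0% of all genes were called by edgeR (1177 had an unadjusted p under 0.05) and 0 by DESeq2.

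**Figure D4:**
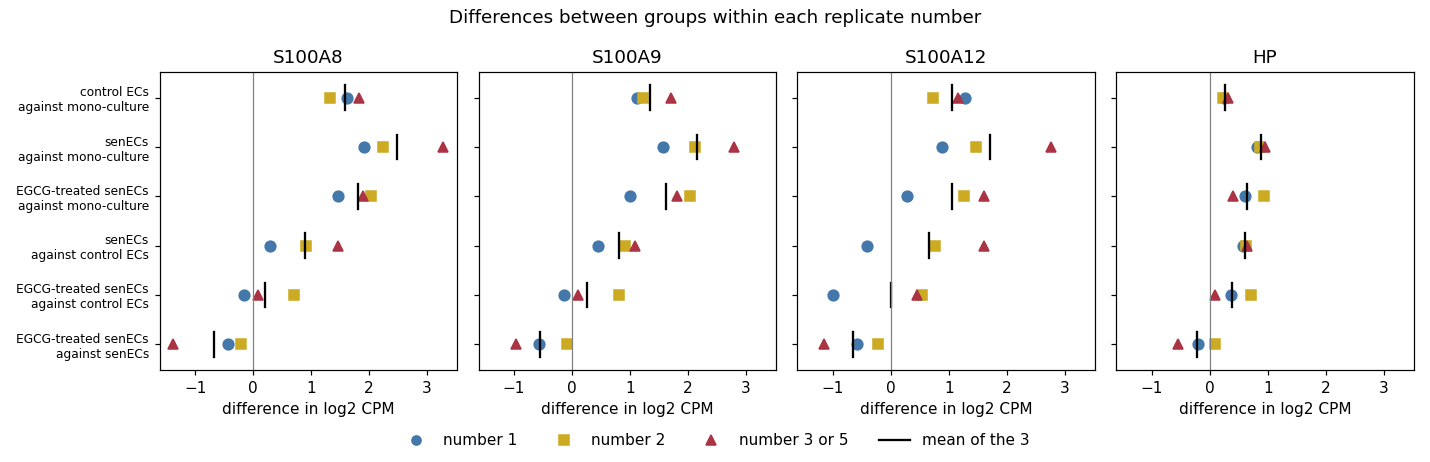
Differences in log2 CPM (x axis) between groups within libraries 1, within libraries 2 and between libraries 3 or 5 (points), with their mean (black line), for the 6 comparisons (rows) and the 4 genes (panels). All points of the 3 comparisons with mono-culture lie above 0, and those of HP lie closer together than those of the S100 genes.

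Over the 12 libraries the log2 CPM of S100A8 and S100A9 ran together with Pearson r = 0.988, the highest value for either among 10832 genes with a mean of at least 5 CPM. The libraries share their depth and replicate number, and no test is given. The other genes most like S100A8 were AC092484.1 (r = 0.981), PPIF (0.976), SERPINE2 (0.968) and S100A12 (0.966). For HP they were PKM (0.976), RNF19B (0.970), TPD52L2 (0.970) and IL10 (0.969), and for S100A12 they were BTG3 (0.979), SLC39A8 (0.977), CCL3 (0.971), ICAM1 (0.971) and PAM (0.970). S100A9 had r = 0.953 with HP (rank 14) and 0.943 with S100A12 (rank 23). After subtraction of the mean of each number, S100A8 and S100A9 still had each other as the closest gene (r = 0.992). With S100A8, S100A12 then reached 0.938 (rank 79) and HP 0.895 (rank 259). The genes then most like HP were EIF4H (0.992), IMPDH1 (0.981), DNAJB6 (0.974), KMT5A (0.972) and FXYD5 (0.967). S100A9 then stood closest to AL355922.1 (0.989), CCDC69 (0.986), NOP56 (0.985) and SMARCD2 (0.985) after S100A8.

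Around the 4 genes, 154 genes of 10 lists were followed, of which 132 passed the count minimum. Few passed the test without the block: 0 in the comparisons among the co-cultures, and against mono-culture 2 for control ECs, 3 for senECs and 1 for EGCG-treated senECs. STAT3, the transcription factor that conveys IL-6 signals to acute-phase genes, rose in all 3 of these. It stood at 176 ± 6.36 CPM in mono-culture, 279.6 ± 25.8 with control ECs, 272 ± 6.30 beside senECs and 271 ± 24.8 for the EGCG-treated group (SD, n = 3), with edgeR adjusted p of 0.00476, 0.00610 and 0.00875. CEBPB, a factor of myeloid and acute-phase genes, rose with senECs against mono-culture, from 46.9 ± 2.59 to 73.0 ± 13.9 CPM (edgeR adjusted p = 0.0317), and stood at 64.3 ± 4.26 with control ECs and 70.6 ± 7.87 with EGCG-treated senECs. Of the 21 upstream regulators 14 had a log2 fold change above 0 with senECs against mono-culture, with a median of 0.19 against -0.02 for all genes. The regulators did not stand out from the lists, as all 132 list genes had a median of 0.21, with 91 above 0. With the block the medians were 0.13 for the regulators and 0.16 for all 132.

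Among 17 receptors and partners of the S100 proteins, CD14, the LPS co-receptor, was the one that rose with senECs against mono-culture, from 8.92 ± 2.67 to 38.2 ± 25.1 CPM (log2 fold change 2.09 ± 0.42, edgeR adjusted p = 0.0363). CD14 stood at 18.9 ± 6.91 CPM with control ECs and 27.5 ± 14.4 with EGCG-treated senECs, and once the means of the numbers were subtracted it was among the 5 genes most like S100A8 (r = 0.982). The edgeR fit with the block called CD14 higher in each co-culture against mono-culture. With senECs against mono-culture (2.74% of all genes) it also called MYD88 and ANXA2 higher and NCF1 lower. NCF1, a subunit of the NADPH oxidase, fell with control ECs from 210.5 ± 18.9 to 134 ± 2.41 CPM (edgeR adjusted p = 0.00849), a value that is uncertain because NCF1 has near-identical pseudogenes that could share its reads. The receptors themselves differed little: TLR4 had means of 30.6 to 39.3 CPM and AGER, which encodes RAGE, of 8.59 to 10.1 CPM, and neither passed the test in any comparison. Over the list the median log2 fold change with senECs against control ECs was 0.21, against -0.01 for all genes and 0.21 for all 132 list genes.

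Of 17 further S100 genes, 11 passed the count minimum and none passed the group-only test. S100A11 was the most abundant, at 166 ± 18.0 CPM in mono-culture, 159 ± 27.3 with control ECs, 232 ± 65.7 beside senECs and 214 ± 49.5 in the EGCG-treated senEC group. S100A10, the partner of annexin A2, stood at 8.73 ± 2.18, 9.31 ± 1.99, 16.1 ± 5.42 and 15.98 ± 2.18 CPM in the same order. With control ECs against mono-culture, where S100A8 and S100A9 had log2 fold changes of 1.70 and 1.49, S100A10 had 0.09 ± 0.24 and S100A11 -0.07 ± 0.18. With senECs against control ECs, 9 of the 11 had a log2 fold change above 0, with a median of 0.54 against -0.01 for all genes. All 132 list genes had a median of 0.21 there, with 97 above 0. Among the 11, S100A2, S100A3, S100A5 and S100B had a mean under 1 CPM, so their fold changes are imprecise. With the block, edgeR called S100A10 and S100A11 in that comparison, with adjusted p of 0.00657 and 0.00164. That fit called 0.591% of all genes there and gave little weight to each gene's own spread.

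Of 13 genes for the handling of haptoglobin and haem, none passed the group-only test. CD163, the receptor of the haptoglobin and haemoglobin complex, stood at 14.4 ± 8.41 CPM in mono-culture, 27.1 ± 23.9 with control ECs, 42.5 ± 41.6 beside senECs and 43.3 ± 42.5 in the EGCG-treated senEC group. HMOX1, which breaks down haem, stood at 5.83 ± 3.19, 7.47 ± 3.44, 15.98 ± 10.4 and 10.96 ± 6.05 CPM in the same order. With the block, edgeR called CD163 with EGCG-treated senECs against mono-culture at a log2 fold change of 1.06 ± 0.14 (adjusted p = 1.39e-10), HMOX1 at 0.76 ± 0.20 (adjusted p = 0.0136) and LRP1, the receptor of haem bound to haemopexin, at 0.48 ± 0.11 (adjusted p = 0.00291). That fit called 1.64% of all genes, and its prior degrees of freedom of 1195 left little weight for each gene's own spread. It linked libraries 3 and 5 through the other groups. The same fit also called CD163 higher with control ECs and with senECs against mono-culture, where it called 1.81% and 2.74% of all genes. HMOX1 and LRP1 were called higher with senECs against mono-culture as well, and BLVRA lower with control ECs against mono-culture. HMOX1 was also called higher with senECs against control ECs (0.591% of all genes). CD163 ranged from 5.28 to 21.9 CPM in mono-culture and from 10.1 to 91.1 CPM with EGCG-treated senECs. With EGCG-treated senECs against mono-culture, the median of the list was 0.19 without the block, against -0.00134 for all genes, and 0.10 with it. Over all 132 list genes it was 0.12 without the block and 0.08 with it.

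The other lists showed no gene past the group-only test apart from CD14, which is also a monocyte marker, in any of the 6 comparisons. With the block, edgeR called C3, ALOX5AP and CD14 of these lists higher with senECs against control ECs (0.591% of all genes). For myeloid granule proteins, which accompany S100A8 and HP in granulocytes, the median log2 fold change with senECs against control ECs was 0.25, with 14 of 17 above 0, and for acute-phase proteins it was 0.24, with 10 of 14 above 0. With the block these medians were 0.14, with 12 of 17 above 0, and 0.17, with 8 of 14 above 0. Over all 132 list genes the median was 0.21 without the block and 0.16 with it. The median was 0.11 for 11 genes that glucocorticoids induce (0.19 with the block) and 0.18 for 14 early LPS response genes, of which 11 were above 0, and the latter was 0.06 with the block, with 9 above 0. For the 10 monocyte markers tested it was 0.25, with 9 above 0. For the 11 endothelial markers tested the median was 0.01, with 6 above 0. The block also gave edgeR calls in these lists against mono-culture. With senECs (2.74% of all genes), ELANE, RNASE2, RNASE3, PTX3, DUSP1, CD163, ALOX5AP, ICAM1, CCL20, CD14, SPI1 and PECAM1 were higher. TNF and A2M were lower there. With EGCG-treated senECs (1.64%), RNASE2, CD163, ICAM1 and CD14 were higher and TNF and DEFA4 lower. With control ECs (1.81%), MMP9, RNASE3, CD163, ICAM1 and CD14 were higher and DEFA4, A2M and CSF1R lower.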

How the data were processed

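RNA-sequencing of 12 libraries of LPS-stimulated THP1 cells was used, in 4 groups of 3 taken from the sample labels. The values are raw read counts, which the authors deposited without normalization in 58735 rows named by gene symbol. Reads were sequenced in pairs per the study's methods, the submitters' processing notes name HISAT2 and hg38, and the counting program is not given in the sources used here. The symbols match GENCODE release 29. A further 4 columns match no described sample and were not used, and 23968 rows had no count.

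The 4 genes and all lists were chosen with earlier results of these data known. From the counts, CPM with TMM factors (0.912 to 1.04) and log2 CPM with a pseudocount of 2 were computed. Genes whose counts summed to 10 or more (25873) were tested with edgeR 4.0.16 (quasi-likelihood, group only, Benjamini-Hochberg, threshold 0.05, R 4.3.3), and the fit was tested on simulated data. The SE of an edgeR fold change is the fold change over the square root of F. FPKM used the length of 1 principal transcript per gene. DESeq2 1.42.0, limma voom (limma 3.58.1), replicate blocks, other filters and size factors, the 6 libraries of a comparison alone, and each library left out served as alternatives. The block in DESeq2, in limma voom and in the 6 libraries of EGCG-treated senECs and mono-culture was chosen after the data were seen. Named list genes were taken from those past a threshold with a mean of at least 1 CPM, by size of change and up to 4 per list and comparison. Others were taken from the 3 most abundant of a list. Not every gene that met this rule is named, so a gene that is not named may still have been called with the block. The genes most like each of the 4 were the 5 with the highest r, of which 1 is not reported here. Genes named outside this rule (TLR4, AGER, HPR and the cell type markers) were chosen after their values were seen. Nothing states that replicates came from separate cultures, so p-values measure the spread between these libraries, which may be technical.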

Additional observations from a re-analysis of the deposited data

How the results depend on the processing

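The calls of the 4 genes given here use libraries of the comparison that chose them and restate that choice. The exception is EGCG-treated senECs against mono-culture, whose libraries may still have entered the choice through the block. Under the other filters, scalings, tools and blocks, the log2 fold changes of the 4 genes kept their direction in 5 comparisons. In EGCG-treated senECs against control ECs, S100A12 went to -0.29, -0.34 and -0.33 with the block by edgeR, DESeq2 and limma voom, and S100A8 to -0.02 by limma voom. In that comparison the range over libraries left out was -0.902 to 1.504 for S100A8, -0.36 to 1.13 for S100A9 and -0.96 to 1.45 for S100A12, lowest without EGCG-treated senEC library 5 and highest without control EC library 3. Leaving out 1 library at a time gave 0 of the 4 genes called in 5 comparisons and 0 to 1 with senECs against mono-culture, where S100A9 passed without senEC library 1 (edgeR adjusted p = 0.0250). Of the list genes, leaving out 1 library called 0 in the comparisons among co-cultures and, against mono-culture, 0 to 2 for control ECs, 0 to 7 for senECs and 0 to 4 for EGCG-treated senECs.

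The replicate numbers (1, 2, 3 and 5) were tried as a block. Deviations from the group means of same-numbered libraries correlated with r from 0.04 to 0.47 over 14397 genes, over 0.1 in 10 of 14 pairs, and 9 of 12 libraries correlated best with their own number (12 of 12 when 3 and 5 are joined), a hint from the data and not from the design. With the block, edgeR called 3 of the 4 genes in senECs against control ECs (0.591% of all genes), 2 in EGCG-treated senECs against senECs (0.0502%) and, for the co-cultures in the order control ECs, senECs, EGCG-treated senECs, 3, 4 and 3 against mono-culture (1.81%, 2.74% and 1.64%). Of the list genes it called 7 in senECs and 1 in EGCG-treated senECs against control ECs, and 14, 26 and 14 against mono-culture. With 3 and 5 joined, edgeR called 4, 1, 3, 4 and 4 of the 4 genes in the same 5 comparisons (1.04%, 0.00387%, 1.55%, 5.44% and 3.02% of all genes), and of the list genes 15 in senECs and 6 in EGCG-treated senECs against control ECs and 12, 41 and 34 against mono-culture. The block in DESeq2, chosen after seeing the data like that in limma voom, called 1 of the 4 genes in senECs against control ECs (0.286%) and 3, 4 and 3 against mono-culture (1.31%, 1.75% and 1.23%), with 10, 19 and 12 list genes. The block in limma voom called 2, 4 and 3 of the 4 genes against mono-culture (0.974%, 1.24% and 0.788%), with 9, 15 and 9 list genes. In the 6 libraries of EGCG-treated senECs and mono-culture, also chosen after seeing the data, the block called 4 of the 4 genes by each tool, with 40 list genes by edgeR, 24 by DESeq2 and 39 by limma voom.

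When every gene with a count was tested, edgeR called 4 of the 4 genes in senECs against control ECs (0.328% of all genes), 3 in EGCG-treated senECs against senECs (0.0403%), and 3, 4 and 4 against mono-culture (0.641%, 1.69% and 1.08%), with 10 and 3 list genes in senECs and EGCG-treated senECs against control ECs and 7, 32 and 22 against mono-culture. In that fit the prior degrees of freedom were infinite and the spread of single genes had no weight, against 11.24 with the minimum of 10 counts and 1195 with the block in 12 libraries. DESeq2 without a block called 11 list genes with senECs and 5 with EGCG-treated senECs against mono-culture. The minimum of 10 counts in every library and the 6 libraries alone each called 1 list gene with senECs against mono-culture. The cause of the other changes was not tested.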
